A study of Mus musculus with 6 samples.

Results

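The genes of the translation initiation factors were followed in heart ventricles of mouse embryos that lack skNAC and of wild-type embryos. They were taken as every probe set with a single platform gene symbol beginning Eif1 to Eif6, without the sex-linked pair Eif2s3x and Eif2s3y. This gave 128 probe sets for 45 genes, out of 45101 probe sets and 18194 genes with a single symbol on the array. Eif1, Eif2s1, Eif3g and Eif4g1 are not among the 45, so the groups of eIF1, eIF2, eIF3 and eIF4F below are incomplete. Each gene is described by the probe set with the highest mean log2 signal, and 44 of the 45 passed the filter on dim probe sets, a mean signal above 95.2.

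The 3 knockout samples carry a targeted deletion of skNAC, the muscle-specific form encoded by the Naca gene, and the 3 others are labelled wild-type. All 6 are of strain 129SvEv and were taken at E11.5, and the labels place death of the knockout, with cardiac defects, by E12.5. The 2 genotypes differ in no other allele or agent that the labels name. Total RNA of ventricles, 500 ng a sample, was amplified, labelled with biotin and read on 1-colour Affymetrix Mouse Genome 430 2.0 arrays, on which a probe set is a group of short probes for a transcript. Whether an array held 1 heart or a pool, and whether embryos shared a litter, is not stated in the labels, so p-values measure only the spread between these samples, which may be technical. The arrays are called knockout 1, 26 and 66 and wild-type 13, 23 and 57 after their titles, and signals of single arrays are given in that order throughout.

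Translation initiation brings the initiator tRNA, the small ribosomal subunit and an mRNA together at a start codon. eIF2 carries the initiator tRNA to the small subunit, eIF2B recharges eIF2 with GTP, and the large scaffold eIF3 holds the small subunit while eIF1 and eIF1A keep it open for scanning. The cap complex eIF4F, made of the cap-binding eIF4E, the scaffold eIF4G and the helicase eIF4A, recruits the mRNA, and eIF5 and eIF5B complete the joining of the large subunit. Kinases that phosphorylate eIF2 and proteins that sequester eIF4E are the main brakes on the process, and much of its control therefore acts on the proteins, which an mRNA array does not read.

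Values are the authors' MAS5 signals, and their trimmed mean was 250 on every array. Signals of different probe sets are not levels that can be set against each other, so each gene is compared only with itself between arrays. Array medians ran from 92.0 to 114.0. Knockout 66 stood apart, with correlations of 0.928 to 0.940 with the other arrays over kept probe sets. The ratio of 3' to 5' signal was higher in every knockout array than in every wild-type array, at 2.49 to 2.57 against 2.05 to 2.24 for actin and 1.28 to 1.45 against 1.12 to 1.20 for Gapdh, and the part of this ratio in the differences given here was not tested. All 9 cardiomyocyte markers passed the filter, with a summed signal of 95963 to 109020 in knockout and 91997 to 99864 in wild-type. Of 6 markers of foregut, liver and lung, 1 passed. Summed blood markers, 5 on the array and all passing, read 54525 to 70574 against 49282 to 58337. Summed markers of cushion mesenchyme and outflow tract read 5810 to 7598 in knockout and 7037 to 7865 in wild-type. Those of epicardium read 5087.5 to 5922.5 in knockout and 4913.7 to 5257.9 in wild-type. No marker of the 8 lists fixed for cell types was called, but 0% of all genes tested were, so this does not show like composition. The Naca signal was 8595 to 9047 in knockout and 8286 to 8566 in wild-type, and nothing in the labels or files says whether this probe set reads the deleted part, so it does not check the genotypes.

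No initiation factor gene was called changed. In limma, 0 of the 44 genes passed an adjusted p of 0.05 over all genes, where 0% of the 11661 genes tested did, and the smallest adjusted p among the 44 was 0.974. At an unadjusted p under 0.05 there were also 0 of 44, where 4.69% of all genes lay under it. Log2 differences, knockout minus wild-type, ran from -0.25 for Eif2b3 to 0.35 for Eif2ak1, and 19 of the 44 were smaller than 0.1 in size. In a bulk sample, fewer cells of a type and less RNA per cell cannot be told apart.

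The intervals given here are those of 1 probe set for each gene. The median standard error was 0.12 over the 44, against 0.19 over all genes tested. The 95% interval lay within a 1.5-fold change in either direction for 35 of the 44 and within 2-fold for 43. The exception to the wider bound was Eif4e3, a cap-binding paralog of eIF4E, which read 255, 105 and 193 on the knockout arrays against 194, 58.4 and 233 on the wild-type arrays, an interval from -0.69 to 1.24. The genes outside the narrower bound were Eif2a, Eif2d, Eif2b1, Eif2b3, Eif2ak1, Eif2ak2, Eif2ak4, Eif4ebp2 and Eif4e3. An interval does not bound the gene as a whole. Of 29 genes with other kept probe sets, 11 had at least 1 of these outside the interval of the brightest. Eif4e2 was among them, with 1 at -0.60 against an interval from -0.31 to 0.23. Eif4e had both of its others outside, at 0.15 and 0.067 against an interval from -0.37 to 0.056.

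**Figure D1:**
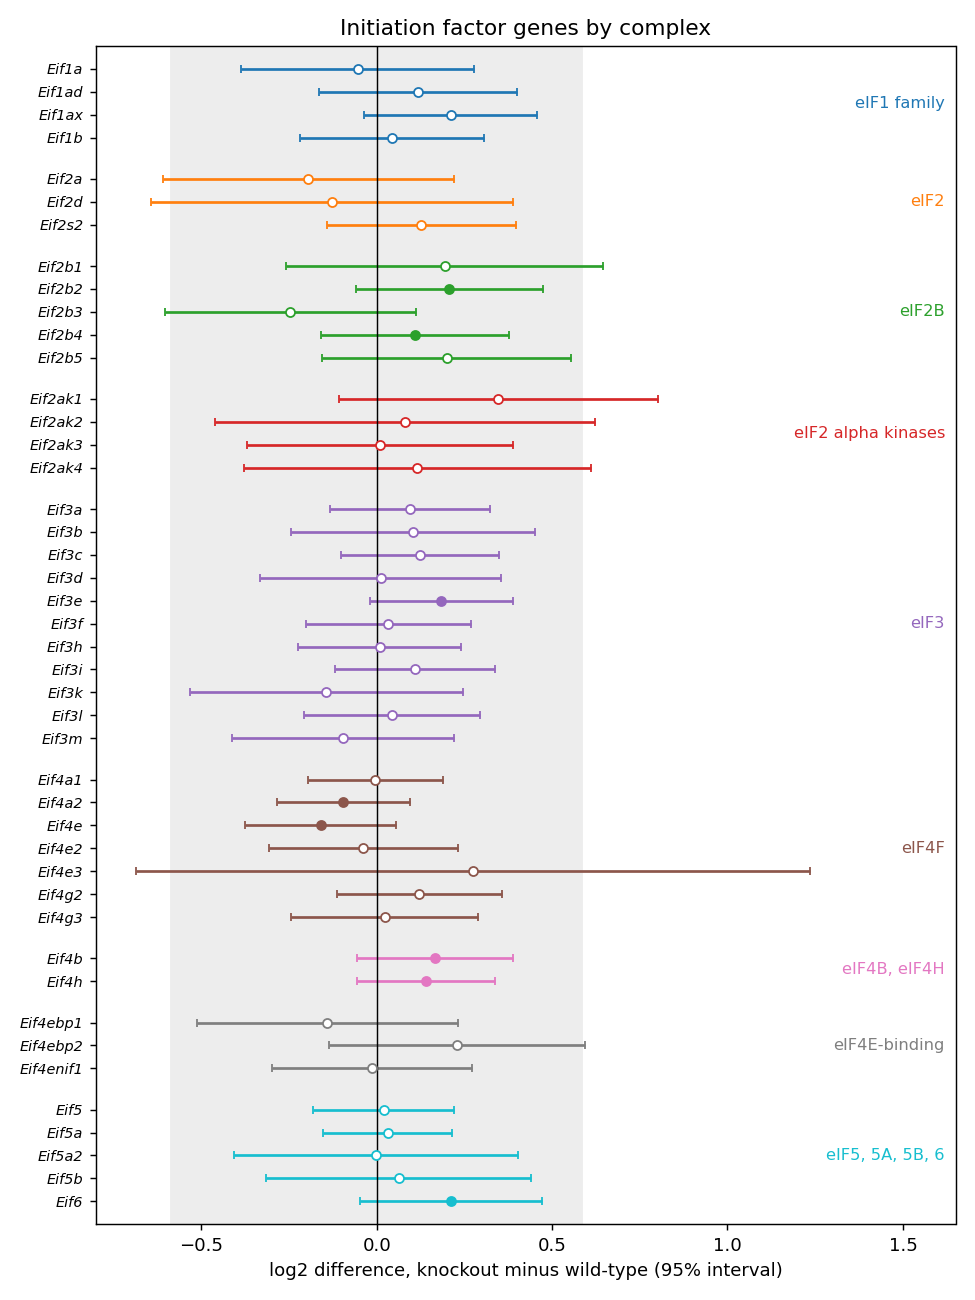
Log2 difference (horizontal axis, knockout minus wild-type, 3 arrays each) of 44 initiation factor genes, listed by complex on the vertical axis, with 95% intervals from limma. Filled points mark the 8 genes whose genotypes do not overlap, the grey band is a 1.5-fold change in either direction, and every interval crosses 0.

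The direction of these small differences was uneven. Of the 44, 31 were above 0 and 13 below, with a median of 0.053, where all genes tested had 50.4% above 0 and a median of 0.0023. Many of these genes have bright probe sets: 19 of the 44 were among the 1166 brightest genes tested, those above a mean signal of 1609. Over all 1166, 64.7% were above 0 and the median was 0.041, and 14 of the 19 initiation factors among them were above 0, with a median of 0.043. In the wider class of the 5830 brighter genes, which held 38 of the 44, the initiation factors were above 0 in 68.4% of cases with a median of 0.043, against 52.4% and 0.0086 for all genes there. Without knockout 66 the median over the 44 was 0.11, where the 1166 brightest genes gave 0.083. With quantile normalization, under which the arrays share 1 distribution, 27 of 44 were above 0 with a median of 0.030, and the median of the 1166 brightest genes was -0.0060.

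The genotypes did not overlap in 8 of the 44 genes (18.2%), where 10.9% of all genes did not. Among the 1166 brightest genes it was 5 of 19 initiation factors (26.3%) against 14.4%, and among the 5830 brighter genes 8 of 38 (21.1%) against 11.9%. The 6 higher in every knockout array were Eif3e, Eif6, Eif2b2, Eif2b4, Eif4b and Eif4h, where 5.4% of all genes were higher in this way. The 2 lower in every knockout array were Eif4e and Eif4a2, where 5.45% were. The count was 2 of 44 after centring arrays on their medians, where 8.22% of all genes did not overlap. It was 15 without knockout 66, where 24.9% did not, with fewer arrays to separate.

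**Figure D2:**
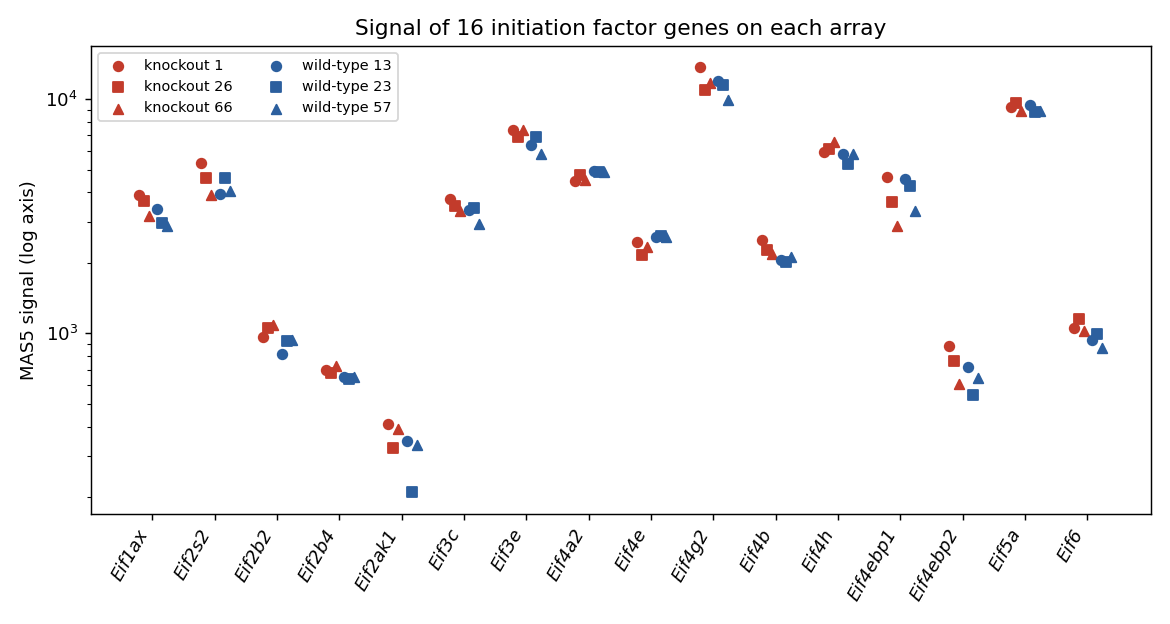
MAS5 signal (vertical log axis) on each of the 6 arrays for 16 initiation factor genes, with knockout in red and wild-type in blue and a symbol for each array. The genotypes lie side by side for each gene, with the widest relative gap at Eif2ak1, where wild-type 23 read 210 and the other arrays 325 to 410.

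Among the factors that place the small subunit at the start codon, Eif1ax, which encodes the scanning factor eIF1A, had the smallest p of its family. It read 3893, 3660 and 3162 on the knockout arrays against 3387, 2969 and 2881 on the wild-type arrays. Wild-type 13 exceeded knockout 66, so the genotypes overlapped, and the log2 difference was 0.21 ± 0.11 (SE, n = 3 and 3). The remaining kept probe sets were at 0.31 and 0.21. Eif1ax lies on the X chromosome, and wild-type 57, its lowest array, also stood alone in the X-inactivation transcript Xist, at 466 against 6275 to 7481 on the other 5 arrays, and was highest in the Y-linked Eif2s3y, at 638 against 2.1 to 213. The part of these in the Eif1ax difference was not tested, and without wild-type 57 the difference was 0.17.

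The other 3 genes of the family lay nearer 0. Eif1ad, related to eIF1A, read 921 ± 21.8 (SD) in knockout against 850 ± 100 in wild-type (log2 difference 0.12), Eif1b, a paralog of eIF1, read 1328 ± 110 and 1288 ± 102 (0.043), and Eif1a, the autosomal copy of eIF1A, read 773 ± 137 and 795 ± 48.3 (-0.054). The second Eif1a probe set was at 0.23, and the arrays did not overlap on it. Near-identical copies of eIF1A could share probes, so which gene a probe set reads is uncertain here.

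eIF2, the carrier of the initiator tRNA, was represented by its beta subunit gene Eif2s2. Its signals were 5310, 4613 and 3886 on the knockout arrays against 3927, 4580 and 4054 on the wild-type arrays. Knockout 66 lay below every wild-type array and knockout 1 above every one, and the log2 difference was 0.13 ± 0.12. Of the 6 probe sets of Eif2s2, all of which passed the filter, 5 were above 0 and 1 was just below. The one with the largest difference read 1246, 1023 and 1338 against 942, 822 and 876, a difference of 0.44 ± 0.13 that did not overlap between genotypes. Its unadjusted p in limma was 0.00741, and adjusted over the 22518 probe sets, of which 0% passed, it was 0.975. This was the smallest p of any initiation factor probe set.

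Eif2a and Eif2d encode proteins outside the eIF2 trimer that can deliver initiator tRNA. Eif2a read 475 ± 119 in knockout against 536 ± 58.0 in wild-type (-0.19 ± 0.19), and Eif2d read 748 ± 281 and 791 ± 149 (-0.13 ± 0.23). The other 4 kept probe sets of Eif2d were all above 0, between 0.079 and 0.28. The median over these 3 genes was -0.13, but 0.085 with the mean of each gene's probe sets, 0.019 without knockout 1 and 0.018 without wild-type 57.

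Genes of eIF2B, the exchange factor that is blocked by phosphorylated eIF2, were above 0 in 4 of 5 cases, with a median of 0.19. Eif2b2, the beta subunit, read 960, 1049 and 1086 on the knockout arrays against 812, 926 and 939 on the wild-type arrays. Every knockout array was above every wild-type array, and the difference was 0.21 ± 0.12. Both of the other kept probe sets were above 0 too, at 0.15 and 0.25. Both of these end in _x_at, a suffix for probes that can match other genes.

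Eif2b4, the delta subunit, read 698, 676 and 728 in knockout against 653, 640 and 651 in wild-type, again without overlap, a difference of 0.11 ± 0.12. Eif2b5, the catalytic epsilon subunit, read 763 ± 74.9 and 668 ± 127 (0.20 ± 0.16). Eif2b1, the alpha subunit that senses phosphorylated eIF2, read 394 ± 20.4 and 353 ± 113 (0.19 ± 0.21), and Eif2b3, the gamma subunit, was on the other side at 274 ± 14.8 and 329 ± 35.6 (-0.25 ± 0.16). No gene of the 5 passed, and their median was 0.082 with array quality weights and 0.10 without wild-type 23.

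All 4 genes of the eIF2 alpha kinases were above 0, and none passed. Eif2ak1, the heme-regulated kinase of red cells, read 410, 325 and 392 on the knockout arrays against 347, 210 and 335 on the wild-type arrays. The ranges overlapped, the difference of 0.35 ± 0.21 was the largest of all 44 genes, and it was 0.13 without wild-type 23. The remaining kept probe sets were at 0.033 and -0.080. Summed blood markers overlapped between the genotypes, as given above, and their part in this difference was not tested.

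The other kinases lay nearer 0. Eif2ak4, the amino acid sensor GCN2, read 191 ± 33.9 and 175 ± 35.0 (0.12 ± 0.22), Eif2ak2, the double-stranded RNA sensor PKR, read 170 ± 48.8 and 157 ± 23.6 (0.081 ± 0.25), and Eif2ak3, the endoplasmic reticulum kinase PERK, read 278 ± 41.3 and 274 ± 7.31 (0.0091 ± 0.17). The median of the 4 was 0.099, but -0.0078 without wild-type 13, 0.23 without knockout 1 and 0.035 without knockout 66.

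The 11 measured genes of eIF3 shared their lowest arrays, 1 of each genotype. Their mean deviation from the average of the 6 arrays was 0.15, 0.067 and -0.15 on the knockout arrays against 0.051, 0.039 and -0.15 on the wild-type arrays. Every one of the 11 had its lowest signal on knockout 66 (5 genes) or wild-type 57 (6 genes), and 8 had their highest on knockout 1. Among the 1166 brightest genes, 30.5% were lowest on knockout 66, 40.4% were lowest on wild-type 57 and 36.4% were highest on knockout 1. Of the other 33 initiation factors, 5 were lowest on knockout 66 and 6 on wild-type 57.

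**Figure D3:**
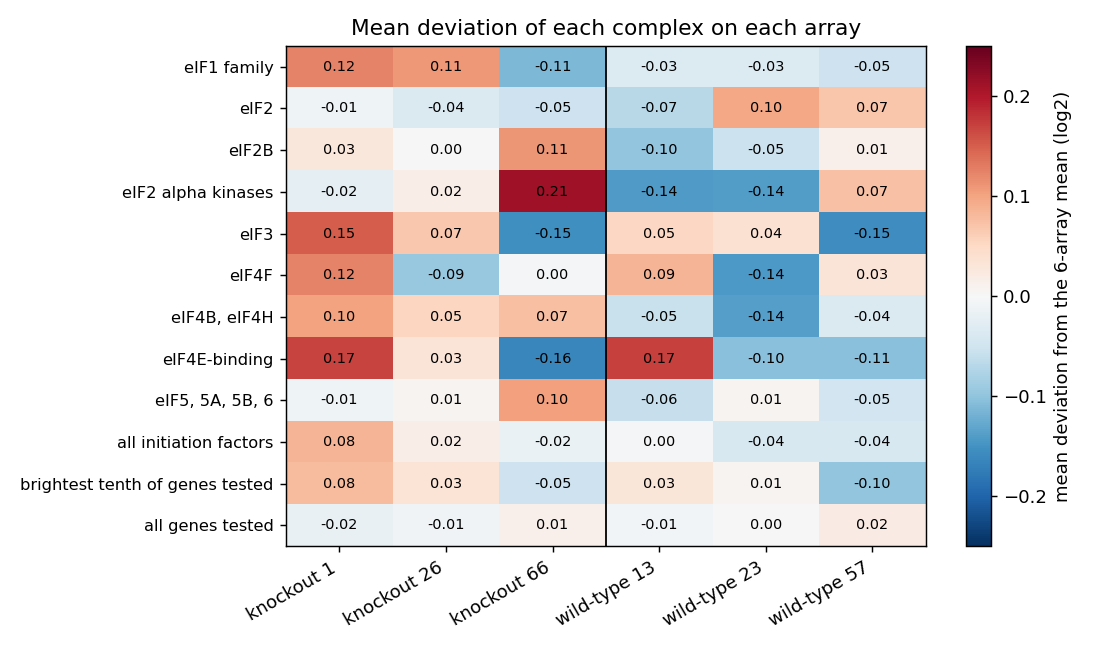
Mean deviation of log2 signal from the 6-array mean (colour and printed value) for each group of initiation factors, for all 44, for the 1166 brightest genes and for all genes tested (rows), on each array (columns, genotypes divided by a line). The eIF3 row is at -0.15 on both knockout 66 and wild-type 57 and at 0.15 on knockout 1, and the row of the 1166 brightest genes has the same signs on those arrays at -0.052, -0.099 and 0.080.

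Between genotypes, 9 of the 11 eIF3 genes were above 0, with a median of 0.043, and that median was -0.015 without knockout 1, 0.0036 without wild-type 57, 0.15 without knockout 66 and 0.0016 after quantile normalization. Eif3e, a subunit of the outer part of the complex, had the smallest p of all 44 genes, 0.0712 unadjusted in limma. It read 7376, 6914 and 7345 on the knockout arrays against 6376, 6856 and 5834 on the wild-type arrays. The genotypes did not overlap, but knockout 26 and wild-type 23 differed by less than 1 SD of either group, and the difference was 0.18 ± 0.09. The other 2 kept probe sets of Eif3e gave 0.14 and -0.052.

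Eif3c, a core subunit, read 3757, 3507 and 3321 on the knockout arrays against 3366, 3422 and 2933 on the wild-type arrays, a difference of 0.12 ± 0.10 with overlapping ranges. Its probe sets disagreed. One ending in _x_at, a suffix for probes that can match other genes, read 1873, 2007 and 1264 against 1378, 1349 and 1062, a difference of 0.42 ± 0.18 (unadjusted p = 0.0364 in limma, adjusted 0.975), and another gave -0.10. The brightest probe set of Eif3c has the same suffix, and without such probe sets the gene stood at -0.10.

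The remaining eIF3 genes lay between -0.14 and 0.11. The core scaffold genes Eif3a and Eif3b gave 0.095 ± 0.10 and 0.10 ± 0.16, and Eif3i, which binds them, gave 0.11 ± 0.10. Eif3f and Eif3h, the pair with a deubiquitinase-like fold, read 5214 ± 615 against 5076 ± 300 (0.034) and 3286 ± 47.5 against 3280 ± 364 (0.0089). Eif3d, a subunit that can itself bind the cap, was at 0.011, and Eif3l at 0.043. The 2 below 0 were Eif3k, at 1583 ± 357 against 1733 ± 272 (-0.14 ± 0.18), and Eif3m, at 1143 ± 175 against 1218 ± 135 (-0.096 ± 0.14).

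The promoters of these genes were read as well. RefSeq windows on GRCm38.p6, from 250 bases before to 50 after an annotated start, were matched by symbol for 36 of the 45 genes. The letters CCGGAAG, the core bound by ETS factors, searched on both strands, were in 15 of 36 genes (41.7%), against 19.3% of 9115 tested genes with a window and 12.9% of 17492 protein-coding genes. The E-box CACGTG, a palindrome bound by Myc and related factors, was in 9 of 36 (25.0%), against 11.7% and 8.91%. Counted by window, since a gene can have several starts, CCGGAAG was in 36.7% of 49 windows against 11.6% of all 21263, and CACGTG in 22.4% against 7.84%. The CCAAT box (letters CCAAT, both strands) was in 38.9% against 42.4% of tested genes, and TATAAA, the TATA box, in 5.56% against 9.34%. None of these motifs contains another. These are descriptions of letters in a window and not sites of binding, and no test was made.

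Of the 8 eIF3 genes with a window, 7 held CCGGAAG (4 genes) or CACGTG (3 genes). At least 1 of these motifs was in 21 of the 36 initiation factor genes with a window (58.3%), in 28.6% of tested genes and in 20.4% of protein-coding genes. The 100 bases before the start are printed for the 6 eIF3 genes in which the letters fall there. Whether a motif has a part in any signal given here was not tested. Capitals mark CCGGAAG or its reverse complement in the first 4 and CACGTG in the last 2, and each sequence runs 5′ to 3′ on the gene's strand.
Eif3c, chr7:126566367-126566466, minus strand: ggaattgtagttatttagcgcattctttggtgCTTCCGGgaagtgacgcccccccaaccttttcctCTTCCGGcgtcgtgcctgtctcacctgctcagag
Eif3d, chr15:77970825-77970924, minus strand: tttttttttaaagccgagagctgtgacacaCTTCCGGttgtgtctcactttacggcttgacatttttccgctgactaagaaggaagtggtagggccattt
Eif3l, chr15:79075123-79075222, plus strand: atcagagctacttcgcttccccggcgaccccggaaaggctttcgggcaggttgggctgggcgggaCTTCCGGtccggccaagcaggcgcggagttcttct
Eif3m, chr2:105017028-105017127, minus strand: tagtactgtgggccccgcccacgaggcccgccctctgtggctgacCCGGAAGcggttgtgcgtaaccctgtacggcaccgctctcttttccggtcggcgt
Eif3f, chr7:108934315-108934414, plus strand: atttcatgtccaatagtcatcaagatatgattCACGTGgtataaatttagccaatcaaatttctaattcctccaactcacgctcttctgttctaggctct
Eif3k, chr7:28981889-28981988, minus strand: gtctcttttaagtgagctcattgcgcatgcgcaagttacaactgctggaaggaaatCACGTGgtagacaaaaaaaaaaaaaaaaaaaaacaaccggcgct

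In Eif3c the ETS letters occur at 2 places, starting 68 and 34 bases before the start. In the others the first marked base lies 70 (Eif3d), 35 (Eif3l), 55 (Eif3m), 68 (Eif3f) and 44 (Eif3k) bases before it.

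The genes grouped under the cap complex eIF4F, which include paralogs but not Eif4g1, lay on both sides of 0. Of these, 3 of 7 were above it, and the median was -0.0033, or -0.060 after quantile normalization. Eif4e, the cap-binding protein and a limiting factor of initiation, read 2453, 2165 and 2330 on the knockout arrays against 2578, 2597 and 2578 on the wild-type arrays. The wild-type arrays lay close together and above every knockout array, a difference of -0.16 ± 0.10 (unadjusted p = 0.133 in limma, adjusted 0.974). The other kept probe sets of Eif4e pointed the other way, at 0.15 and 0.067. The first of them read 1452, 1543 and 1314 against 1300, 1335 and 1239, with overlap.

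Eif4a2, a helicase paralog of Eif4a1, was the second gene below every wild-type array, at 4456, 4752 and 4515 against 4906, 4880 and 4872, a difference of -0.095 ± 0.09 from its only probe set. Eif4a1, the main helicase, read 6738 ± 221 and 6759 ± 399, a difference of -0.0033 ± 0.09. Its interval, from -0.20 to 0.19, was among the narrowest.

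The scaffold-like gene Eif4g2, which lacks the part that binds eIF4E, read 13668, 10953 and 11721 on the knockout arrays against 11965, 11439 and 9944 on the wild-type arrays. The ranges overlapped and the difference was 0.12 ± 0.11. That probe set ends in _s_at, a suffix for probes shared between transcripts. Another probe set of Eif4g2, which stands for the gene when such probe sets are left out, was lower in every knockout array, at 4182, 4050 and 3515 against 4209, 4424 and 4288, a difference of -0.14 ± 0.10. Eif4g3, the second full-length scaffold, gave 0.022 ± 0.12.

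Eif4e2, a cap-binding paralog linked to repression of translation, gave -0.038 ± 0.12 on its brightest probe set, and all 4 of its kept probe sets were below 0. One of them read 466, 375 and 557 on the knockout arrays against 496, 909 and 771 on the wild-type arrays, a difference of -0.60 ± 0.22 (unadjusted p = 0.0205 in limma, adjusted 0.975). Knockout 66 lay above wild-type 13, so the ranges overlapped. Eif4e3, described above, was at 0.27 ± 0.44.

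Both cofactors of the helicase were higher in all knockout arrays. Eif4b, which stimulates eIF4A, read 2498, 2268 and 2188 on the knockout arrays against 2064, 2011 and 2109 on the wild-type arrays, a difference of 0.17 ± 0.10. The remaining kept probe sets were at 0.073 and -0.34 ± 0.44. Eif4h, its smaller relative, read 5954, 6141 and 6551 against 5799, 5299 and 5818, a difference of 0.14 ± 0.09. The probe set of Eif4h ends in _x_at, and the 4 others that were kept ranged from -0.069 to 0.066, with the gene at -0.069 when such probe sets are left out. With the mean of all kept probe sets the pair had a median of -0.0087 in place of 0.15.

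Windows of Eif4e and Eif4h both held CACGTG within 100 bases of the start, shown in capitals, beginning 64 and 96 bases before it. Eif5a, at a log2 difference of 0.031, also held CACGTG, 74 bases before 1 start, and CCGGAAG, 55 bases before another. Its windows are not printed.
Eif4e, chr3:138527168-138527267, plus strand: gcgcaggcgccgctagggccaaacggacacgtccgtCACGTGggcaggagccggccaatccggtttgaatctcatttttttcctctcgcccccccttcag
Eif4h, chr5:134639410-134639509, minus strand: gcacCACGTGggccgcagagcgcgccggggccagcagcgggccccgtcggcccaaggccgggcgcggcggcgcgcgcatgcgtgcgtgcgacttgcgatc

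Of the proteins that hold eIF4E away from the scaffold, Eif4ebp1 read 4624, 3618 and 2880 on the knockout arrays against 4575, 4262 and 3312 on the wild-type arrays. In each genotype the array with the lowest signal was the one on which eIF3 was lowest too, knockout 66 and wild-type 57, and the difference was -0.14 ± 0.17. It was 0.028 without knockout 66, and 0.030 from its other kept probe set, the first one ending in _x_at. The transporter gene Eif4enif1, which carries eIF4E into the nucleus, read 995 ± 76.0 and 1006 ± 120 (-0.013 ± 0.13).

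Eif4ebp2, the second repressor, had kept probe sets on both sides of 0. Its brightest read 886, 763 and 610 on the knockout arrays against 719, 544 and 646 on the wild-type arrays, a difference of 0.23 ± 0.17 with overlap. Another read 196, 200.5 and 185 against 334, 243 and 251, lower in every knockout array, at -0.47 ± 0.19 (unadjusted p = 0.0306 in limma, adjusted 0.975). The remaining 3 gave -0.063, -0.41 and 0.41. The files do not say which stretch of the transcript each one reads.

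Kept probe sets on both sides of 0 were common in the family and over the array, in a count of signs that takes no account of size. Of 29 initiation factor genes with more than 1 kept probe set, 20 had probe sets on both sides of 0 (69.0%), where 57.0% of the 4619 such genes on the array did. Of 107 kept probe sets, 70 were above 0. An unadjusted p under 0.05 in limma was reached by 4, those of Eif2s2, Eif3c, Eif4e2 and Eif4ebp2 given above, 2 higher and 2 lower in knockout, where 4.81% of all probe sets reached it. None of the 4 was the brightest probe set of its gene.

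**Figure D4:**
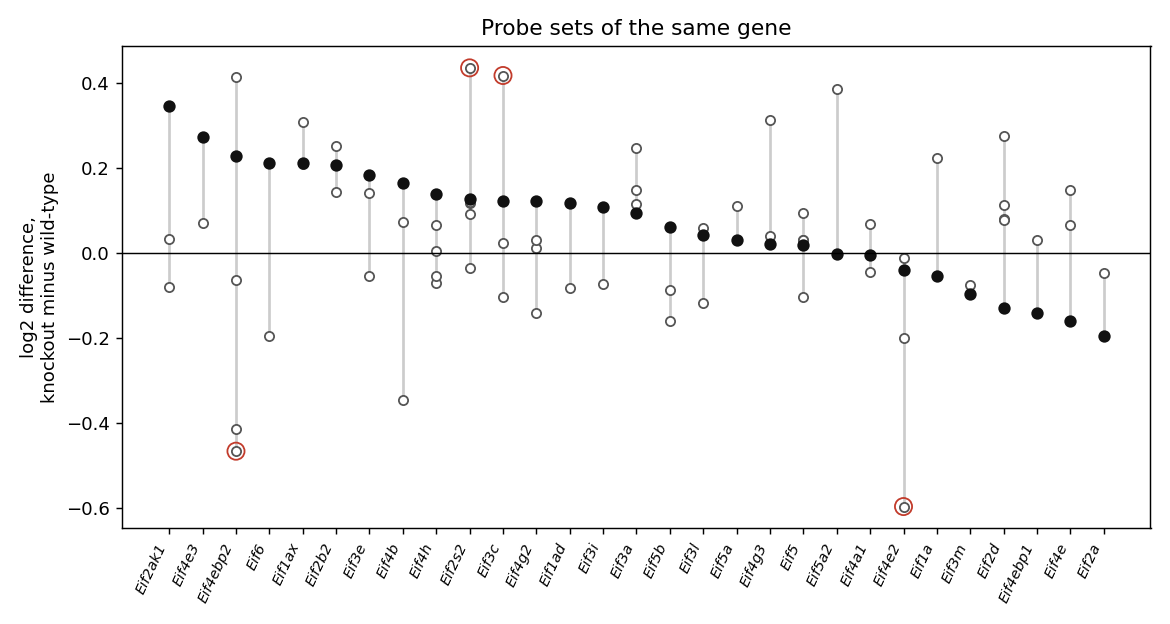
Log2 difference (vertical axis, knockout minus wild-type) of each kept probe set of the 29 genes with more than 1, ordered by the brightest probe set (filled). Open points are the other probe sets of the gene and red rings mark the 4 probe sets with an unadjusted p under 0.05, and in 20 genes the points lie on both sides of 0.

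Genes of the group of eIF5, eIF5B, eIF5A and eIF6 lay close to 0 on their brightest probe sets, apart from Eif6. Eif6, which keeps free large subunits from joining small ones, read 1057, 1155 and 1026 on the knockout arrays against 935, 990 and 865 on the wild-type arrays. Every knockout array was above every wild-type array, a difference of 0.21 ± 0.12. A second probe set of Eif6 was on the other side, at 287 against 333 (-0.20 ± 0.17).

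Eif5a, which carries the hypusine modification and helps ribosomes past difficult stretches, read 9260, 9660 and 8876 on the knockout arrays against 9463, 8811 and 8928 on the wild-type arrays. The ranges overlapped, and the difference of 0.031 had an SE of 0.08 and an interval from -0.15 to 0.21, the narrowest of the 44 genes. After quantile normalization it was -0.072. The brightest probe set of Eif5a ends in _s_at and its only other one in _x_at, so the gene has no value when such probe sets are left out. Its paralog Eif5a2 gave -0.0013 ± 0.18, the GTPase-activating factor gene Eif5 0.020 ± 0.09 and the subunit-joining GTPase gene Eif5b 0.063 ± 0.17.

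Eif4a3, the helicase of the exon junction complex, was the gene that did not pass the filter. Its single-symbol probe set read 24.0, 9.9 and 22.7 on the knockout arrays against 7.3, 10.5 and 12.6 on the wild-type arrays, and it has no test. A further 6 probe sets for Eif4a3, Eif1a, Eif4ebp3, Eif3j1 and Eif3j2 carry several symbols and were not used here.

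Other genes of the initiation pathway gave no call either. Of 52 genes in 4 lists, 45 were tested, 0 passed and 0 had an unadjusted p under 0.05 in limma, and 22 were above 0. Among mRNA and ribosome partners, 13 of 19 were above 0, with a median of 0.067. Bzw1, an eIF5 mimic, read 2155, 2262 and 2294 on the knockout arrays against 1845, 2019 and 1952 on the wild-type arrays (0.21 ± 0.10), and Abce1, which recycles ribosomes, read 1213, 1288 and 1192 against 1015, 1146 and 966 (0.24 ± 0.12). Neither gene overlapped between genotypes.

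Regulators of initiation were above 0 in 7 of 17 cases, with a median of -0.076. Ppp1r15a, the stress-induced subunit of the phosphatase that acts on eIF2, read 161 ± 23.4 and 222 ± 29.7 (-0.43 ± 0.21) without overlap, and Dap, which encodes a substrate of mTOR, read 1903 ± 488 and 2319 ± 48.3 (-0.31 ± 0.16). Of the genes whose mRNAs respond when eIF2 is phosphorylated, 2 of 7 were above 0, with a median of -0.077. Ppp1r15a belongs to that list too, Sesn2 gave -0.33 ± 0.31, and Atf4, its central transcription factor, read 1182 ± 65.3 and 1148 ± 186 (0.053 ± 0.14). The 3 mitochondrial initiation genes were all below 0, with Mtif3 at -0.35 ± 0.31 and Mtfmt at -0.18 ± 0.21.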

How the data were processed

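The authors deposited 1 linear intensity per probe set and array. GCOS and MAS5 are named in the submitters' processing notes, without versions. Every array has a 2% trimmed mean of 250, so a signal is relative to its own array.

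Intensities were taken as log2(intensity + 16), so differences of dim genes are understated. Probe sets whose mean over 6 arrays exceeded the median of non-control probe sets (22518 of 45101, the latter with 64 controls) were fitted in limma 3.58.1 under R 4.3.3 (lmFit, eBayes with trend, two-sided). Each gene took its brightest kept probe set, and p-values were adjusted by Benjamini-Hochberg over 11661 genes, with calls at 0.05. All 45 genes matched RefSeq by Entrez identifier. The fit was tested on simulated arrays with known differences. Of 100 genes changed by 0.5 in log2, 33% were called in the right direction. Of 100 changed by 1, 87% were, and there were 4 false calls.

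Genes and lists were chosen with earlier results of these data known. In each complex, signals of all arrays are given for the genes of smallest p and highest wild-type signal, for those with an unadjusted p under 0.05 (none) or whose genotypes do not overlap, and for those whose probe sets disagree with 1 at an unadjusted p under 0.05. For each pathway list the 2 genes of smallest p are given. Every other gene is given with its difference. Array values of Eif4e3 and of second probe sets, the naming of Atf4, and the motifs were chosen after values were seen. Alternatives were pseudocounts of 1 and 64, other filters (none, 70th percentile), quantile normalization, median centring, eBayes without trend, array quality weights, other probe set choices and each array left out. Promoters were read and figures made in Python 3.11.15 with Matplotlib 3.10.9.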

Additional observations from a re-analysis of the deposited data

How the results depend on the processing

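No initiation factor and no other pathway gene was called under any of the 16 alternatives, with the smallest adjusted p of an initiation factor in limma between 0.303 (array quality weights) and 1.00. Differences of the 16 genes given with their arrays kept their sign in 246 of 255 values, with none for Eif5a when the _x_at and _s_at probe sets were left out. The 9 exceptions were, leaving out the _x_at and _s_at probe sets, Eif3c at -0.10, Eif4ebp1 at 0.030, Eif4g2 at -0.14 and Eif4h at -0.069; averaging all kept probe sets of a gene, Eif4b at -0.035, Eif4e at 0.019 and Eif4ebp2 at -0.060; Eif5a at -0.072 after quantile normalization; and Eif4ebp1 at 0.028 without knockout 66, in a range from -0.31 to 0.028 on leaving out each array. A different probe set, or mean of probe sets, makes the first 7; the cause of the others was not tested. The median over all 44 ran from 0.031 to 0.11 on leaving out each array. The genes without overlap then numbered 9 to 15 of 44, where 18.1% to 24.9% of all genes did not overlap, with fewer arrays to separate. After centring on array medians they numbered 2 of 44, where 8.22% of all genes did not overlap. Medians by complex moved beyond the spread between arrays for eIF2B (0.082 with array quality weights, and 0.10 to 0.19 on leaving out arrays), the eIF2 kinases (-0.0078 to 0.23), eIF2 and its relatives (0.085 with the mean of probe sets), eIF4F (-0.060 after quantile normalization), eIF4B with eIF4H (0.097 after quantile normalization, 0.048 without _x_at or _s_at probe sets, -0.0087 with the mean of probe sets) and the eIF5, eIF5A, eIF5B and eIF6 group (0.065 with array quality weights, and 0.012 to 0.057 on leaving out arrays). No paired analysis was possible because the genotypes share no replicate number. With 3 arrays a genotype, the 95% intervals limit what can be said, and each holds for 1 probe set.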
